A study of Mus musculus with 20 samples.

Results

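Mouse cells labelled as embryonic progenitors, with brain as their source, were compared after transduction with control embryonic progenitors. The labels do not say whether both groups came from the same cells. The groups were taken from the sample labels, with 5 transduced embryonic samples set against 5 control embryonic samples, which is 10 of the 20 samples of the series. The labels describe all of them as brain cell lines and the transduction as a genetic modification. The introduced sequence, its promoter, the vector, the embryonic stage and the mouse strain are not named in the labels. The other samples, 5 control and 5 transformed postnatal progenitors, were used only to ask where the embryonic response differed from the postnatal one. The labels name transduction for the embryonic cells and transformation for the postnatal ones, so the 2 treatments and the 2 ages cannot be told apart there. The samples of a group are numbered, but nothing says that they came from separate cultures, so a p-value here covers the spread among these arrays alone, and that spread may be technical. In bulk RNA of this kind, fewer cells of a type and less RNA per cell cannot be told apart.

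Glial and neural progenitors divide while keeping transcription factors of the neural lineage, and they leave the cycle as they become neurons, astrocytes or oligodendrocytes. Cells that are short of oxygen stabilise hypoxia-inducible factors, which switch on glucose uptake, glycolysis and vessel growth factors. Growth factor and stress signals act within minutes on immediate early genes such as those of the Fos, Jun and Egr families. These programmes, and the genes by which neural cells adhere to each other and receive transmitters, are described below by gene lists and by single genes.

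Total RNA was hybridised to 1 single-colour array per sample, and each value is a signal in arbitrary units. The signal of bacterial control probe sets, used as the background level, lay between 139 and 221 on the 10 arrays, and 62.0% to 72.3% of probe sets lay above it. Arrays correlated across probe sets representing genes with r of 0.961 to 0.970 in the control group and 0.956 to 0.969 in the transduced group. RNA quality was read from probe sets at both ends of a pair of control transcripts. The 3' over 5' ratio, on the log2 scale, was 0.08 higher in transduced samples for Gapdh and 0.10 higher for Actb (exact two-sided permutation test of 252 splits, p = 0.0317 and 0.00794, adjusted over both 0.0317 and 0.0159). The part of this shift in the results below was not tested.

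The labelled cell type was checked against marker lists. Sums of linear signals rest mostly on the brightest markers. Of 19 measured neural stem and radial glia markers, 17 lay above background on all control arrays and 18 on all transduced arrays. Their summed signal was 502484 to 597112 in control and 340340 to 353671 in transduced samples, with 5 called higher and 4 lower. Oligodendrocyte progenitor markers were summed to 285164 to 314220 in control samples and to 120247 to 129717 after transduction, with 0 of 14 higher and 9 lower. Neuron markers went from 118738 to 128773 in control samples to 30297 to 31991, with 1 of 18 higher and 12 lower. Astrocyte markers were summed to 195143 to 217469 in control and 203635 to 224226 in transduced samples, with 2 of 19 higher and 5 lower. Myelinating oligodendrocyte markers were summed to 41740 to 46633 in control and 17600 to 20690 in transduced samples. Schwann and neural crest markers reached 51780 to 55735 and 26025 to 29617, and pericyte and smooth muscle markers 17979 to 33160 and 10815 to 12873. Ependymal markers reached 2809 to 3824 and 2535 to 3838. Markers of blood cells stayed near background, with 5 of 9 below it on all 10 arrays and a summed signal of 533 to 1363 against 438 to 1155. Microglia markers were summed to 3645 to 4140 in control and 3832 to 6678 in transduced samples, and endothelial markers to 2479 to 3139 and 3081 to 4932. Muscle markers reached 4101 to 5405 and 2590 to 3446. Fibroblast and meningeal markers were summed to 16456 to 19128 in control and 24443 to 28661 in transduced samples, with 3 of 16 higher and 3 lower. Their part in the results on collagens and matrix genes was not tested.

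Transduction went with a broad change. Of 18193 genes tested, 1582 were called higher in transduced samples, a share of 8.70%, and 1043 were called lower, a share of 5.73%, which makes 2625 or 14.4% in all (limma; a call needs an adjusted p below 0.05 plus at least a 2-fold difference). The shares of 8.70% and 5.73% are to be set beside every count of called list members below. At an unadjusted p under 0.05 alone, 26.2% of all genes were higher and 21.9% lower. The arrays of both groups did not overlap for 6331 genes, 34.8% of those tested, among them 2220 of the called genes. Of the called genes, 224 higher and 110 lower ones were not above background on all 5 arrays of the brighter group. Changes are given as the transduced minus the control mean of log2(signal + 16), with their standard error, and they understate the fold of dim genes. The median change over all genes was 0.08. Of the calls, 60.3% were higher, and after quantile normalization 51.9% were. Over all genes, 70 went from below background on all control arrays to above it on all transduced arrays, and 80 went the other way.

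**Figure D1:**
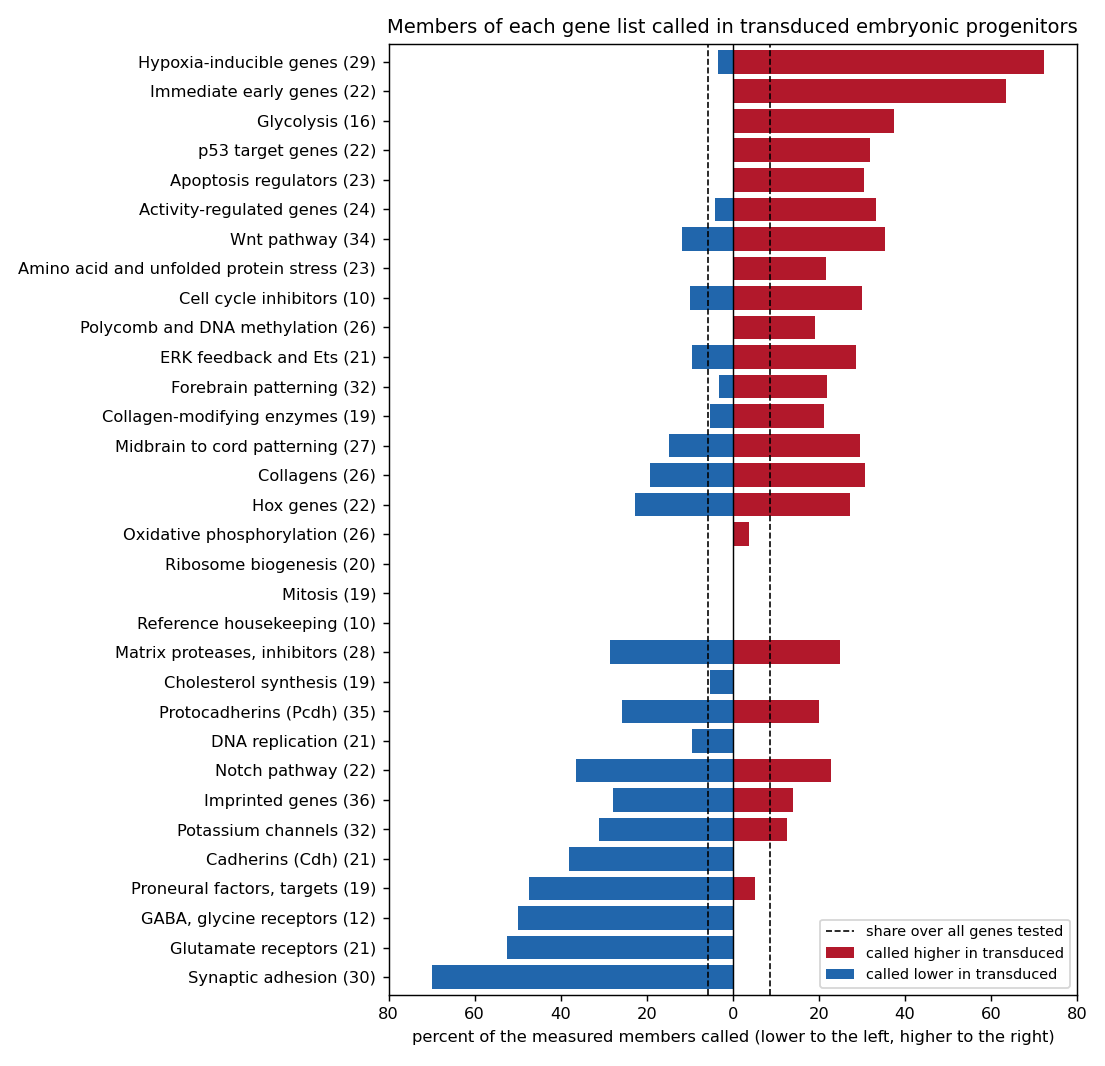
Percent of the measured members of each gene list called higher (red, to the right) and lower (blue, to the left) in transduced embryonic progenitors, with the number of measured members in brackets; the dashed lines mark the shares over all genes tested, 8.70% higher and 5.73% lower. Among the lists drawn, hypoxia-inducible genes (21 of 29 higher) and immediate early genes (14 of 22 higher) stand at the top, and synaptic adhesion genes (21 of 30 lower) at the bottom. The interferon, antigen presentation and Frizzled lists are not drawn.

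The marker genes of this paragraph were given with the comparison, so their distance between the groups is a description and no independent support. Ndrg1, Arc and Cdkn2a, described below, were given in the same way. Oasl2, an interferon-induced antiviral gene, was below background in every control sample, with signals of 111, 27.4, 110, 18.6 and 76.2, and read 17545, 19080, 21206, 19429 and 24237 in transduced samples, at least 110-fold higher. Usp18, which removes the interferon-induced modifier Isg15 from proteins, had a mean signal of 130 in control samples, where 3 of 5 arrays were above background, and of 16068 in transduced samples. Of 20 interferon response genes 18 were called higher, and of 11 genes of class I antigen presentation 10 were. On the falling side stood Pdgfra, the growth factor receptor of oligodendrocyte progenitors, with 6308, 7706, 9603, 7607 and 6923 in control and 713, 324, 722, 773 and 446 in transduced samples, a change of -3.70 ± 0.20 (adjusted p = 1.7e-10). Its other bright probe sets changed by -2.75 and -1.49. Lhfpl3, another gene of that lineage, changed by -5.06 ± 0.10, and Gap43, a growth cone protein of neurons, by -4.63 ± 0.08. The groups did not overlap for any of these genes.

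Several of the largest rises were read from near background. The largest fitted rise outside the interferon lists was that of Mycn, which encodes the transcription factor N-Myc. Its representing probe set read 551, 756, 366, 156 and 817 in control samples, above background on 4 of 5 arrays, and 93443, 108760, 110210, 121943 and 116234 in transduced samples, a change of 7.85 ± 0.30 (adjusted p = 2.8e-12). Its other 2 probe sets changed by 0.95 and 1.26 on the same scale, with mean signals from 1327 to 2570 and from 331 to 718, so the size of the rise differed between probe sets. The same representing probe set changed by 7.96 in the postnatal comparison.

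Lgals9, which encodes the secreted lectin galectin-9, rose by 6.06 ± 0.12, Rtp4, an interferon-induced chaperone of receptors, by 5.92 ± 0.13, and Ifi27, another interferon-induced gene, by 5.33 ± 0.24. The other bright probe set of Rtp4 changed by 2.87. Socs2, a feedback inhibitor of cytokine signalling, had a mean signal of 156 in control samples, with 2 of 5 arrays above background, and of 11664 after transduction. Its other bright probe sets were also higher after transduction, the least of them with mean signals of 321 and 642 and the most with 17.9 and 2006. Frem2, a basement membrane protein, was below background in every control sample and read 6898, 5160, 5833, 6018 and 4722 in transduced samples, at least 31.1-fold higher. Sp8, a zinc finger factor of forebrain and limb development, was likewise below background in controls and rose at least 26.2-fold. Pcdhgc4, a protocadherin of the gamma cluster, read 413, 238, 382, 565 and 463 in control and 20509, 20958, 17809, 16933 and 18927 in transduced samples, a change of 5.52 ± 0.16. In the postnatal comparison Pcdhgc4 changed by -0.20, and the postnatal minus the embryonic change was -5.72 (interaction, adjusted p = 9.4e-11).

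The deepest falls are given for genes above background on every control array, because the rule for naming genes required it. For rises the rule required the same of the transduced arrays. Anxa6, a calcium-dependent membrane-binding annexin, read 10265, 12401, 10817, 11378 and 10678 in control samples and 35.3, 209, 50.4, 147 and 224 in transduced samples, where 2 of 5 arrays were above background. Its other 3 probe sets were lower too, with mean signals of 6239 and 93.1, of 370 and 152.5, and of 506 and 258, and 1, 2 and 3 transduced arrays above background. In postnatal cells Anxa6 rose by 2.40, so the responses differed in sign, by 8.88 (adjusted p = 4.9e-11). Rps4l, a gene related to ribosomal protein S4, went from 10585, 10294, 10121, 9695 and 9875 to signals below background on every transduced array, at least 50.5-fold lower. Dner, a neuronal transmembrane ligand of Notch, changed by -4.78 ± 0.17 (adjusted p = 7.8e-13), Ackr3, a scavenging receptor of the chemokine Cxcl12, by -4.62 ± 0.12, and Gabrg1, a GABA receptor subunit, by -4.41 ± 0.15. Tceal1 and Scg3, the second a secretory granule protein, were at least 25.5-fold and at least 24.9-fold lower. Gpx7, a peroxidase of the endoplasmic reticulum, had a mean signal of 4562 in control and 101 in transduced samples, where 1 of 5 arrays was above background. Tmem267 changed by -4.74 ± 0.18, with 4 of 5 transduced arrays above background.

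Genes induced by low oxygen rose together. Of 29 measured hypoxia-inducible genes, 21 were called higher and 1 lower, against 8.70% and 5.73% of all genes, and the median change was 1.70 against 0.08. All 21 lay above background on every transduced array, as did all but 224 of the 1582 genes called higher. None of the 21 overlapped between the groups, which also holds for 2220 of all 2625 called genes. The 21 are led by Ndrg1, a stress-induced gene that N-Myc represses, which read 279, 441, 44.9, 73.8 and 183 in control samples, above background on 3 of 5 arrays, and 30643, 32435, 33438, 33060 and 22709 in transduced samples. Ankrd37, an ankyrin repeat protein with a hypoxia-inducible promoter, read 917, 746, 1094, 864 and 840 in control and 30067, 31957, 29225, 29646 and 26221 in transduced samples, a change of 5.03 ± 0.09 (adjusted p = 3.1e-16). Every transduced sample was far above every control sample for both genes.

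Hypoxia-inducible factors bind a short core, ACGTG, in promoters and enhancers. The 250 bases before the annotated start of each gene were searched for it on both strands, in RefSeq sequences of GRCm38.p6, with the first listed start of each symbol. Of the 21 risen genes 18 had a promoter in that table, and 10 of them (55.6%) held the core, as did 2856 of 14452 promoters of tested genes (19.8%). The longer CACGTG, which contains the core, was in 2 of the 18 (11.1%) and in 7.56% of all. A match is only a description of these letters and shows no binding. The list was made of known hypoxia-inducible genes, and its members not called higher were not counted apart. The shares therefore say nothing about the rise in these cells. The promoters of the 3 holders with the largest rise are shown, 5′ to 3′ on the gene's strand, with each match in capitals; CACGT is the core read on the other strand. They lie at chr8:45999851-46000100 for Ankrd37, chr14:45318573-45318822 for Ero1a and chr7:138909507-138909756 for Bnip3, all on the minus strand.
Ankrd37: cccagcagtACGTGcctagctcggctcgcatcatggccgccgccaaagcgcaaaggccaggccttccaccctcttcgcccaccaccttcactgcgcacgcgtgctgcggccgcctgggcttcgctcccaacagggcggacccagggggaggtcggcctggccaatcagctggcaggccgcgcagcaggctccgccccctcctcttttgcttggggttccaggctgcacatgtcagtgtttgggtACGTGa
Ero1a: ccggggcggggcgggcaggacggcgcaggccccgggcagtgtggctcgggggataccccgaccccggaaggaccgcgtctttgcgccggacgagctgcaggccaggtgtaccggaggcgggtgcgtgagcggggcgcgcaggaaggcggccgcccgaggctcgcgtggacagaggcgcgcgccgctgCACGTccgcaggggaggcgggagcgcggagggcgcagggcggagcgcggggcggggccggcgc
Bnip3: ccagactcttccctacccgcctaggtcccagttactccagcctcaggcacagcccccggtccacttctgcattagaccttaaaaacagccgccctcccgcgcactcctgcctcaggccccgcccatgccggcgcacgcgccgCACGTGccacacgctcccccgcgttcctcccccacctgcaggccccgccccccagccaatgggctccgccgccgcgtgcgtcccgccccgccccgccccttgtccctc

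Ero1a, the oxidase that forms disulphide bonds in the endoplasmic reticulum, read 4320, 4172, 4435, 4631 and 4149 in control and 69758, 73630, 72752, 75091 and 65376 in transduced samples, a change of 4.03 ± 0.05 (adjusted p = 2.1e-17). Bnip3, a mitochondrial protein of mitophagy whose promoter is printed above, rose by 3.24 ± 0.10. Bhlhe40, a transcriptional repressor of the clock, rose by 3.26 ± 0.06. Vegfa, the vessel growth factor, went from 3395, 3605, 4455, 3404 and 3590 to 32250, 34888, 31440, 31316 and 25933, a change of 3.07 ± 0.08, with all transduced samples above all controls. Egln3, a prolyl hydroxylase that marks hypoxia-inducible factors for degradation and is itself induced by them, rose by 1.31 ± 0.08 (adjusted p = 4.2e-10).

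The genes of the factors themselves moved differently from each other. Hif1a read 37890, 33487, 34434, 35159 and 38209 in control and 37114, 32065, 29966, 28453 and 27092 in transduced samples, a change of -0.22 ± 0.08 (adjusted p = 0.026) that stayed under 2-fold, and the groups overlapped. Its protein is regulated mainly by degradation, which these arrays do not read. Epas1, which encodes the related factor HIF-2 alpha, rose by 1.71 ± 0.12 (adjusted p = 6.2e-09), from 812, 741, 701, 691 and 756 to 2803, 2103, 2805, 2444 and 2184. Hif3a changed by 0.53 ± 0.40 (adjusted p = 0.34), with overlapping groups. Adm, the vasodilator peptide adrenomedullin and a common hypoxia target, was the member called lower, at 2429, 2328, 2423, 2106 and 2214 in control and 331, 221, 537, 555 and 611 in transduced samples, a change of -2.40 ± 0.23.

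**Figure D2:**
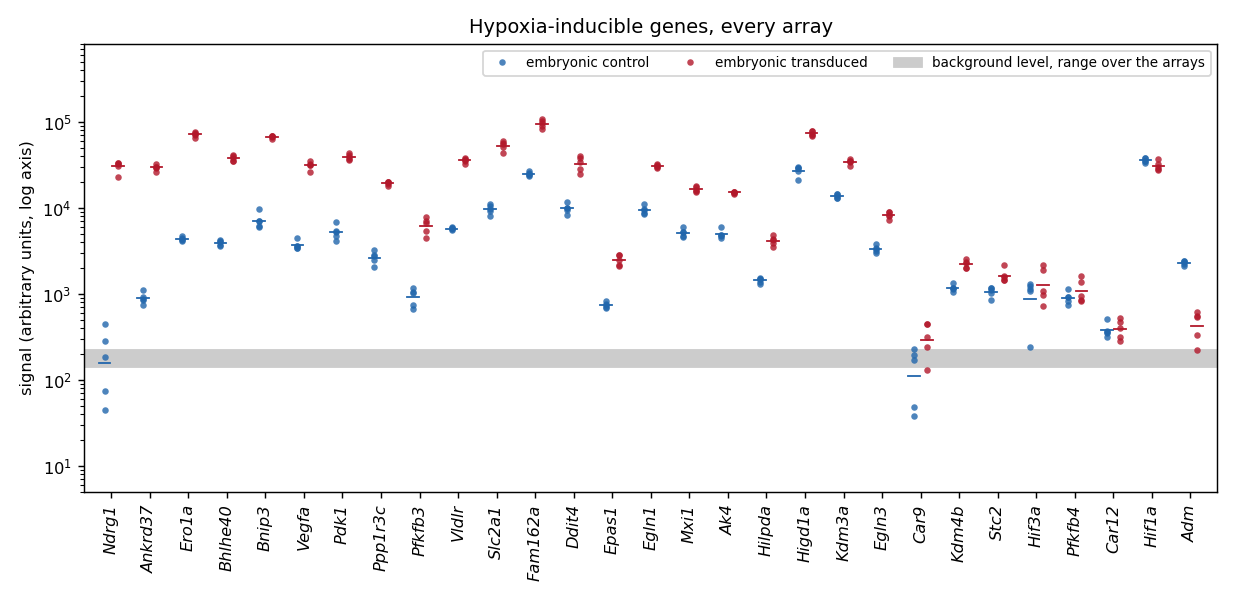
Signal of each of the 29 measured hypoxia-inducible genes on every array (log axis, arbitrary units), with control embryonic samples in blue and transduced samples in red; short bars are the group means on the log2(signal + 16) scale and the grey band is the range of the background level, 139 to 221. Genes are ordered by their change, from Ndrg1 to Adm, and the groups stand apart for the 21 genes called higher.

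Genes of glycolysis were mostly higher, many of them by less than 2-fold. Of 16 genes, 6 were called higher and 0 lower. At an unadjusted p under 0.05, 15 were higher and 1 lower, where 26.2% and 21.9% of all genes were. Slc16a3, the exporter of lactate, had 4 of 5 control arrays above background and rose by 4.69 ± 0.19, and Hk2, the inducible hexokinase, went from 4978, 4612, 5289, 5208 and 5068 to 42415, 43623, 42751, 41650 and 41424, a change of 3.07 ± 0.05 (adjusted p = 1.6e-16). Eno2 rose by 2.11 ± 0.23 and Pfkl, a subunit of phosphofructokinase, by 1.35 ± 0.07. The abundant Ldha and Pgk1 stayed under 2-fold, at 0.57 ± 0.08 and 0.67 ± 0.08 (adjusted p = 1.2e-05 and 3.5e-06), with no overlap between the groups.

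Of 19 enzymes and chaperones that modify collagen, 4 were called higher and 1 lower, or 21.1% and 5.26%, beside 8.70% and 5.73% of all genes. The hydroxylases, several of which hypoxia induces, led the rises. P4ha2, a subunit of prolyl 4-hydroxylase, had signals of 33.1, 51.2, 99.3, 202 and 84.3 in control samples, above background on 1 array, and of 8704, 9155, 9400, 10459 and 6638 in transduced samples. Plod2, the lysyl hydroxylase of collagen telopeptides, rose by 2.45 ± 0.06 and P4ha1 by 2.11 ± 0.06 (adjusted p = 1.6e-14 and 9.8e-14). Loxl1 had mean signals of 208 and 584, with 3 of 5 control arrays above background, a call lost in the mean over its probe sets (0.79, adjusted p = 0.0621). The chaperone gene Serpinh1 went the opposite way, from 28109, 26893, 26110, 27502 and 28536 to 6592, 6485, 7221, 6607 and 5553, a change of -2.08 ± 0.06, and Lox changed by -0.25 ± 0.35 (adjusted p = 0.64), or by 0.47 in the mean over its probe sets (adjusted p = 0.308).

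In postnatal cells 7 of the 29 hypoxia genes were called higher and 4 lower, beside 9.56% and 6.4% of all genes. The difference between the responses was called for 21 of the 29 genes, 20 with the embryonic change above the postnatal one and 1 below it, beside 9.75% and 9.36% of all genes. Without postnatal control samples 4 and 5, where Mki67 read 5929 and 4351 against 34816 to 37266 in the other postnatal controls, these counts were 19 and 1. The median change of the list was 1.70 in embryonic and -0.07 in postnatal cells. Ankrd37 rose in embryonic cells and changed by -3.24 in postnatal ones, where 1 of 5 transformed arrays was above background, a difference of -8.26 (adjusted p = 7.4e-10). Egln3 changed by -2.12 in postnatal cells, Hk2 by -0.40 and Pfkl by -1.72, and each difference was called (adjusted p = 2.7e-09, 2.1e-08 and 7.1e-10). Vegfa rose in both, by 1.91 in postnatal cells. For Epas1 the postnatal change was 2.25 and the difference, 0.54, was not called (adjusted p = 0.19).

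Immediate early genes formed the second programme. Of 22 measured genes 14 were called higher and 0 lower, with a median change of 2.0, or 1.83 with each signal raised to its array's background. At an unadjusted p under 0.05, 18 were higher and 0 lower. Klf4, a zinc finger factor of stem cells and growth arrest, read 270, 338, 348, 331 and 340 in control and 12680, 13020, 14513, 14492 and 13101 in transduced samples, a change of 5.31 ± 0.09 (adjusted p = 3.1e-16). Egr3 went from 594, 682, 1872, 888 and 893 to 21780, 21575, 19426, 17166 and 20743, a change of 4.45 ± 0.21, while its other bright probe set changed by 0.45. Fosb was below background in every control sample and read 3163, 4033, 3755, 3387 and 5976 after transduction, at least 21.7-fold higher. Junb rose by 3.84 ± 0.13, from 398, 545, 616, 386 and 550 to 6879, 7645, 7862, 7148 and 6694. The groups did not overlap for any of the 14, nor for 2220 of all 2625 called genes.

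The best known members of this class were less uniform. Fos rose by 1.73 ± 0.13 from a high control level, with signals of 16611, 19817, 26549, 20340 and 19242 in control and 50779, 65063, 66194, 75646 and 84330 in transduced samples. Egr1 changed by 0.94 ± 0.08 (adjusted p = 7.9e-08), short of 2-fold, without overlap between the groups. It passed 2-fold after quantile normalization, at 1.02, and without control sample 3, at 1.02. Myc changed by -0.02 ± 0.06 (adjusted p = 0.82), and its groups overlapped at 9249, 10613, 9586, 8611 and 9078 in control and 8991, 8960, 9638, 9884 and 8877 in transduced samples. Among the 14 risen genes 10 had a promoter sequence. Of the 10, 0 held TGACGTCA or TGANTCA, the letters of the CRE and AP-1 sites, on either strand in the 250 bases searched. These letters stood in only 2.27% and 5.58% of all promoters, so their absence from 10 promoters tells little. Sites other than those named here were not searched. The core ACGTG stood in 2 of the 10 and CACGTG in 2.

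Of 24 genes regulated by neuronal activity, 8 were called higher and 1 lower. Arc, which neurons induce at synapses, was below background in every control sample, at 73.1, 87.5, 52.3, 26.5 and 101, and read 10238, 13055, 11901, 12545 and 10420 in transduced samples, at least 63.3-fold higher. Vgf, a secreted neuropeptide precursor, also rose from below background, at least 3.97-fold. Nr4a3, a nuclear receptor, rose by 1.95 ± 0.17 and Gadd45b by 1.69 ± 0.13, though another Gadd45b probe set changed by 0.56. The Nr4a3 call was lost in the mean over its probe sets (0.78, adjusted p = 0.086). Scg2, a secretory granule protein, was called lower, with mean signals of 364 and 156 and 1 of 5 transduced arrays above background. Its call was lost without control sample 1 or 4, without transduced sample 1 or 3, and in the fit over 20 arrays (adjusted p of 0.0517 to 0.0719). Npas4, an activity-dependent factor of neurons, was above background on 1 control array and on none of the transduced arrays.

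**Figure D3:**
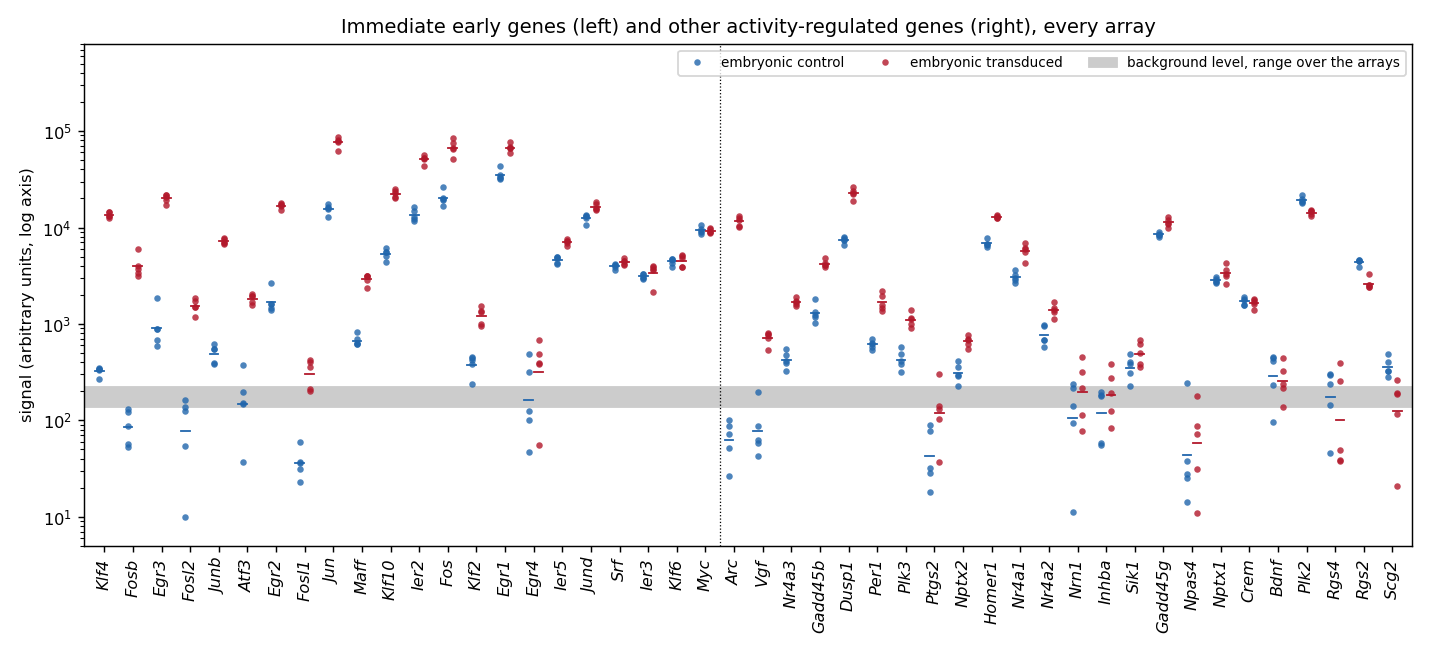
Signal of 22 immediate early genes (left of the dotted line) and of the activity-regulated genes not among them (right) on every array, on a log axis in arbitrary units; blue is control, red is transduced, short bars are group means and the grey band is the background level. Klf4, Fosb, Egr3 and Arc rise from a low control level, while every sample of both groups lies between 8611 and 10613 for Myc.

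In postnatal cells Egr3 fell by 2.72 and Fosb changed by -0.65, and both differences from the embryonic change were called (-7.17 and -5.95, adjusted p = 2.7e-10 and 1.3e-09). For the whole list 11 differences were called with the embryonic change above the postnatal one and 1 below, beside 9.75% and 9.36% of all genes. These shares are to be set beside each count of differences below. Klf4 rose in both comparisons, by 3.36 in postnatal cells. Egr1 changed by -2.11 in postnatal cells, a difference of -3.05 (adjusted p = 3.2e-12). Among 24 activity-regulated genes 5 differences lay on the embryonic side and 7 on the postnatal side.

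Feedback inhibitors and targets of the ERK pathway, which carries growth factor signals, gave 6 higher and 2 lower of 21. Dusp4, a phosphatase that inactivates ERK in the nucleus, went from 2800, 2824, 2723, 2504 and 2918 to 19056, 19790, 22741, 22816 and 21323, a change of 2.93 ± 0.06 (adjusted p = 2.8e-15). Dusp5, its relative, rose by 2.14 ± 0.18 and Spry4, a receptor-level inhibitor, by 1.76 ± 0.08. Epha2, an ephrin receptor, had mean signals of 196 and 1115, with 2 of 5 control arrays above background. Ets1 changed by -2.42 ± 0.13 and Ccnd1, the G1 cyclin D1, by -1.91 ± 0.07, from 47042, 51074, 46531, 52080 and 53619 to 13963, 12711, 15230, 13598 and 11258. Etv5, an Ets factor that follows ERK activity in many cells, changed by -0.11 ± 0.06 (adjusted p = 0.22) with overlapping groups. In postnatal cells Ccnd1 rose by 1.47 and Dusp5 was called lower, below background on every transformed array, both opposite to the embryonic direction.

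Of 10 inhibitors of the cell cycle, 3 were called higher and 1 lower. Cdkn2a, which encodes the inhibitors p16 and p19Arf, read 323, 296, 256, 177 and 383 in control samples, above background on 4 of 5 arrays, and 14994, 11852, 11176, 10870 and 12489 in transduced samples, a change of 5.37 ± 0.16 (adjusted p = 1.3e-13). Cdkn1a, which encodes p21, went from 5539, 6223, 5351, 5981 and 5803 to 28901, 29024, 29353, 28951 and 22405, a change of 2.25 ± 0.07, and Cdkn2b, which encodes p15, rose by 1.68 ± 0.14. Cdkn1c, which encodes p57, fell by 1.44 ± 0.08, and Cdkn1b, which encodes p27, changed by 0.73 ± 0.07 (adjusted p = 3.2e-07).

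Of 19 mitosis genes 0 were called, because the 13 with an adjusted p under 0.05 (limma) all stayed under 2-fold. At an unadjusted p under 0.05, 2 were higher and 11 lower, where 26.2% and 21.9% of all genes were. The changes ran from -0.78 to 0.34. Mki67, a marker of cycling cells, read 34388, 35430, 32101, 34451 and 37623 in control and 30083, 28629, 33625, 27555 and 34283 in transduced samples, a change of -0.18 ± 0.07 (adjusted p = 0.04), and the groups overlapped. Of 21 DNA replication genes 2 were called lower, Rrm2, a subunit of ribonucleotide reductase, by -1.11 ± 0.06, and Gins1, part of the replicative helicase, by -1.08 ± 0.08. Gins1 was under 2-fold in the mean over its probe sets, at -0.72, and its other probe set changed by -0.35. Pcna, the sliding clamp, changed by -0.30 ± 0.08 (adjusted p = 0.0065). The median changes were -0.28 for replication and -0.18 for mitosis, where the postnatal ones were -1.28 and -1.37. The difference between the responses was called for 9 of 21 replication and 4 of 19 mitosis genes, all with the embryonic change above the postnatal one. Without postnatal control samples 4 and 5 these counts were 18 and 19.

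Targets of p53, the factor that answers DNA damage and oncogene stress, gave 7 higher and 0 lower of 22 (15 higher and 3 lower at an unadjusted p under 0.05). Perp, a membrane protein of p53-dependent death, went from 217, 329, 326, 233 and 438 to 1758, 2319, 2277, 1999 and 1650, a change of 2.66 ± 0.21 (adjusted p = 1.8e-08). Pmaip1, which encodes the death-promoting protein Noxa, rose by 2.10 ± 0.10 and Polk, a translesion polymerase, by 1.97 ± 0.12. Mdm2, the ubiquitin ligase of p53 and its target gene, changed by 0.59 ± 0.11 (adjusted p = 0.00025), short of 2-fold and with overlapping groups. The difference from the postnatal response was called for 11 of the 22, with 10 higher on the embryonic side. Perp changed by -0.76 in postnatal cells, a difference of -3.43 (adjusted p = 8.3e-08), and Cdkn1a by 1.96, a difference of -0.29 that was not called (adjusted p = 0.76).

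Of 23 regulators of apoptosis and related death pathways, 7 were called higher and 0 lower (9 higher and 3 lower at an unadjusted p under 0.05). Bcl2l11, which encodes the death-promoting protein Bim, went from 2433, 2699, 2559, 2266 and 2611 to 14905, 13718, 14128, 11155 and 11137, a change of 2.36 ± 0.08 (adjusted p = 1.2e-12). Casp9, an initiator caspase, rose by 2.25 ± 0.13, and Tnfrsf12a, the receptor of the cytokine Tweak, by 2.12 ± 0.11. Mlkl, the executioner of necroptosis, had mean signals of 95.9 and 856, with 1 of 5 control arrays above background.

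Of 10 Frizzled receptor genes 7 were called higher and 0 lower, and of 19 Wnt ligand genes 3 were called higher and 3 lower. Among these ligands 1 of the 3 higher ones lay above background on every transduced array, and 2 of the 3 lower ones on every control array. In the Wnt list 12 of 34 genes were called higher and 4 lower, and 9 of the 12 lay above background on every transduced array. With the mean of all probe sets 5 Frizzled genes were called higher and 0 lower, and in the Wnt list 9 genes were called higher and 1 lower. Fzd7 read 3065, 2778, 3389, 2703 and 3301 in control and 38870, 40800, 37482, 36415 and 35447 in transduced samples, a change of 3.63 ± 0.07 (adjusted p = 6.2e-16). Fzd6 rose by 2.68 ± 0.22, Fzd8 by 2.04 ± 0.15 and Fzd5 by 1.38 ± 0.15, and the coreceptor Lrp5 by 1.80 ± 0.26. Fzd5 was under 2-fold in the mean over its probe sets, at 0.83. Lef1, a transcription factor of the pathway, had mean signals of 149 and 898, with 3 of 5 control arrays above background.

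Wnt7b, a ligand of the developing forebrain, changed by -1.91 ± 0.16 and Lgr5, a receptor that strengthens Wnt signals, by -1.14 ± 0.07. In the mean over its probe sets Lgr5 changed by -0.61, under 2-fold. Wnt7a fell by 2.61 ± 0.13 at its representing probe set, but its other bright probe set changed by 0.16, and the mean of its probe sets was not called, at -0.50 (adjusted p = 0.117). Tcf7l2 changed by -1.02 ± 0.12 and was under 2-fold without control sample 4 (-0.99) and without transduced sample 5 (-0.90), as it was in the mean over its probe sets (-0.92). Axin2, a feedback target often used to read the pathway, changed by -0.35 ± 0.13 (adjusted p = 0.034). The difference from postnatal cells was called for 12 genes on the embryonic side and 3 on the other. Fzd7 changed by 0.99 in postnatal cells, a difference of -2.64 (adjusted p = 1.4e-10).

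Notch genes moved both ways. Of 22, 5 were called higher and 8 lower. Among target genes of the pathway Hey1 went from 2080, 3047, 2940, 2375 and 2933 to 14095, 14282, 14933, 13247 and 17056, a change of 2.46 ± 0.10 (adjusted p = 4.3e-12), and Nrarp rose by 1.59 ± 0.09. Hey2 had mean signals of 98.4 and 778, with 2 of 5 control arrays above background, and the receptor gene Notch3 rose by 1.32 ± 0.10. The ligand gene Dll3 fell from 15298, 17440, 19818, 17006 and 14718 to 782, 1224, 788, 724 and 812, a change of -4.28 ± 0.12, and the change of Dll1 was -1.80 ± 0.07. Notch1 fell by 1.78 ± 0.11, with its other probe set at -0.49. Hes5, the target gene most tied to neural progenitors, changed by -0.33 ± 0.16 (adjusted p = 0.12), and its groups overlapped. The rises of Hey1 and Nrarp differed from the postnatal changes of -0.85 and -1.05 (adjusted p = 1.1e-10 and 2.3e-10).

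Factors that drive neuronal commitment, with some of their targets, gave 9 lower and 1 higher of 19. Dll1 and Dll3 are among them, as ligands that proneural factors induce. Myt1, a zinc finger factor of early neurons and oligodendrocyte progenitors, had signals of 2896, 3098, 3857, 3314 and 2916 in control samples and 111, 52.2, 12.7, 118 and 221 in transduced samples, above background on 1 array. Myt1l had mean signals of 867 and 198, with 3 of 5 transduced arrays above background. Neurog2, a proneural factor of the cortex, was the member called higher, by 1.75 ± 0.37 (adjusted p = 0.00081), with 4 of 5 control arrays above background.

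Many synaptic adhesion genes fell. Of 30 synaptic adhesion genes, 21 were called lower and 0 higher (22 lower and 0 higher at an unadjusted p under 0.05), with a median change of -2.05, or -1.54 with each signal raised to its array's background. Neto1, an auxiliary subunit of kainate receptors, read 8537, 8772, 9400, 8664 and 7269 in control samples and 143, 116, 35.2, 162 and 168 in transduced samples, above background on 1 array. Elfn1, which organises synapses on interneurons, had mean signals of 4975 and 93.8, with 1 transduced array above background. Cntn1, a contactin of axons and glia, went from 19449, 19390, 21954, 21520 and 21199 to 1575, 1362, 1589, 1293 and 1596, a change of -3.79 ± 0.07 (adjusted p = 6.3e-16). Its other bright probe sets changed by -3.62 and -1.88. Lrrtm1, a leucine-rich partner of neurexins, had mean signals of 2929 and 251, with 3 transduced arrays above background. Nxph1, a secreted ligand of neurexins that is outside the list, fell by 5.59 ± 0.28, with 4 of 5 transduced arrays above background. The summed markers of neurons fell with these genes, as given above. So did those of other cell types, among them oligodendrocyte progenitors, myelinating oligodendrocytes and Schwann cells. The part of these cell types in the result was not tested.

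**Figure D4:**
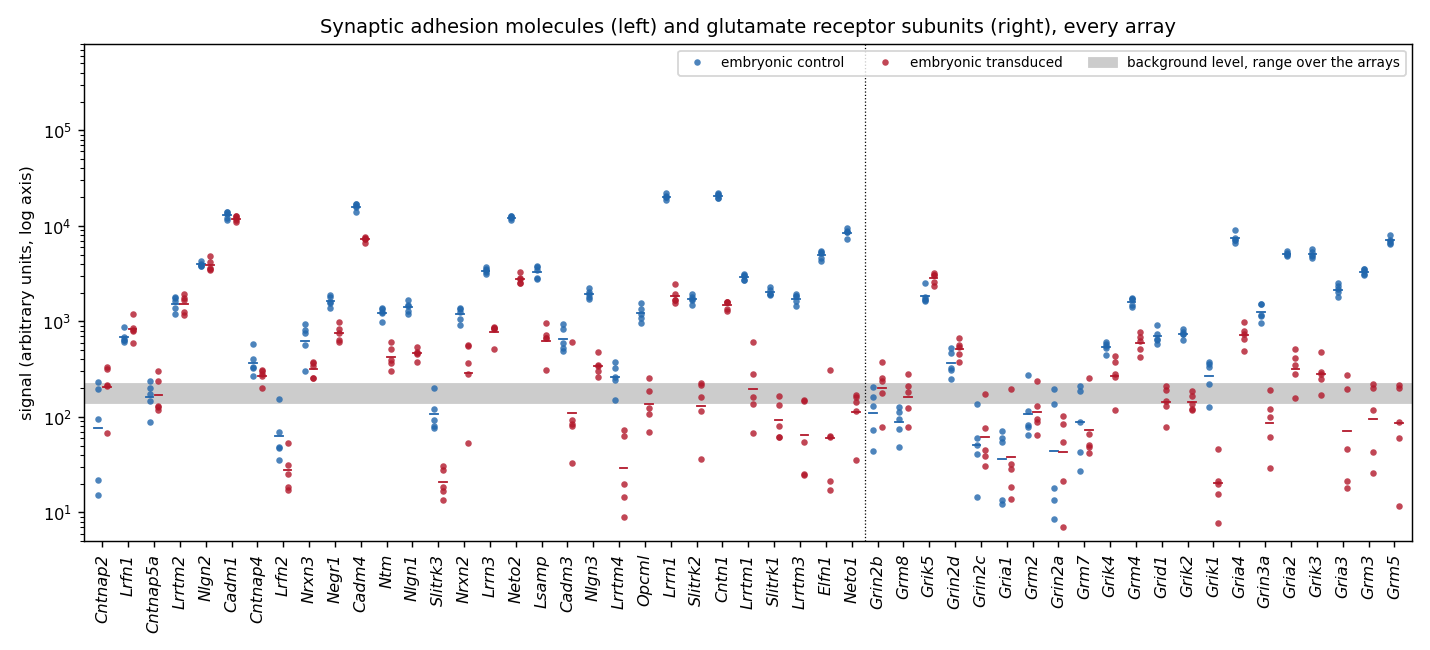
Signal of 30 synaptic adhesion genes (left of the dotted line) and 21 glutamate receptor subunits (right) on every array, on a log axis in arbitrary units, each set ordered by its change; blue is control, red is transduced, short bars are group means and the grey band is the background level. Neto1 and Grm5 stand at the right end of their sets, with Neto1 at 7269 to 9400 in control and 35.2 to 168 in transduced samples, and no overlap between the groups for either gene.

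Glutamate receptors gave 11 lower and 0 higher of 21 (12 lower and 1 higher at an unadjusted p under 0.05). Grm5, a metabotropic receptor, read 7185, 6980, 6594, 8096 and 6483 in control samples and 199, 213, 87.5, 60.1 and 11.8 in transduced samples, above background on 2 arrays. Grm3, another metabotropic receptor, had mean signals of 3313 and 122, with 1 transduced array above background. Gria2, the AMPA receptor subunit that limits calcium entry, changed by -3.94 ± 0.22 (adjusted p = 3.3e-10) and Grik3, a kainate receptor subunit, by -4.10 ± 0.20, with 4 of 5 transduced arrays above background.

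Receptors of GABA and glycine gave 6 lower and 0 higher of 12 (6 lower and 1 higher at an unadjusted p under 0.05). Gabrg1 went from 10109, 9532, 9793, 10222 and 10453 to 672, 361, 410, 357 and 554. Glrb, the beta subunit of glycine receptors, changed by -1.81 ± 0.22 and Gabra2 by -1.42 ± 0.23. Gabra3 had mean signals of 706 and 127, with 1 transduced array above background. Potassium channel genes gave 4 higher and 10 lower of 32. Kcnd2, a channel of fast transient currents, went from 15464, 13933, 18446, 15236 and 13824 to 1396, 864, 758, 978 and 901, a change of -3.97 ± 0.13, and Kcnmb4, a subunit of calcium-activated channels, fell by 3.06 ± 0.07. Kcnj10, the potassium channel of glia, fell by 3.55 ± 0.28, with 4 transduced arrays above background, and Kcne1l had mean signals of 4300 and 113, with 1 above. Kcnk1, a leak channel, rose by 1.96 ± 0.07, Kcnt1 by 1.91 ± 0.20, and Kcnf1, with 4 control arrays above background, by 1.80 ± 0.26, a call lost in the mean over its probe sets (0.80, adjusted p = 0.0968). Kcna1 had mean signals of 195 and 899, with 2 control arrays above background.

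In postnatal cells 8 of the 30 synaptic adhesion genes and 4 of the 21 glutamate receptors were called lower, beside 6.4% of all genes. The difference between the responses was called for 20 of 30 synaptic adhesion genes, 18 of them with the postnatal change above the embryonic one, and for 9 of 21 glutamate receptors, all on that side. Neto1 changed by 0.27 in postnatal cells, where its mean signals were 14572 in control and 17343 in transformed samples (difference 6.31, adjusted p = 1.9e-12). Cntn1 changed by 0.75 (difference 4.54, adjusted p = 2.5e-18). Grm3 went the same way in both, with mean signals of 1639 and 36.9 in postnatal cells, below background on every transformed array. Gap43 rose by 1.47 in postnatal cells, a difference of 6.11.

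Cadherins, which hold cells together through calcium-dependent contacts, gave 8 lower and 0 higher of 21 (11 lower and 0 higher at an unadjusted p under 0.05). Cdh11, a mesenchymal cadherin, went from 5681, 4973, 6472, 4883 and 4754 to 417, 452, 423, 436 and 279, a change of -3.69 ± 0.14 (adjusted p = 2.6e-12). Cdh20 changed by -2.51 ± 0.11, Cdh22 by -1.84 ± 0.09 and Cdh10 by -2.43 ± 0.11, with 2 dimmer Cdh10 probe sets at -0.54 and -0.63 (3 and 4 transduced arrays above background). The main neural cadherin, Cdh2, changed by -0.57 ± 0.06 (adjusted p = 6.5e-07), under 2-fold, and the epithelial Cdh1 was above background on none of the control arrays and on 1 transduced array. Protocadherins, the related family of neural recognition molecules, moved both ways, with 7 higher and 9 lower of 35.

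Pcdh17 went from 9628, 8081, 9308, 9006 and 9098 to 110009, 110171, 107770, 111814 and 97912, a change of 3.57 ± 0.06 (adjusted p = 1.6e-16), and Pcdh18 rose by 3.16 ± 0.08 and Pcdh8 by 1.45 ± 0.23. Pcdh11x, an X-linked member, read 6004, 5668, 6807, 6351 and 6272 in control samples and 171, 18.3, 72, 56.9 and 15.2 in transduced samples, above background on 1 array. Pcdh15 had mean signals of 2289 and 132, with 1 transduced array above background, while its other bright probe set changed by -0.98. Pcdh9 changed by -2.0 ± 0.12 and Pcdh19 by -1.75 ± 0.15. In postnatal cells Pcdh17 fell, with a change of -1.39, a difference of -4.96 (adjusted p = 1.3e-19), while Pcdh11x changed by -0.03.

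Collagen chains gave 8 higher and 5 lower of 26, and 3 of the 5 lay above background on every control array. Without control sample 2, or without transduced sample 1 or 3, 3 were called lower. Col2a1, the collagen of cartilage, was below background in every control sample and read 2749, 3367, 3974, 3025 and 2799 after transduction, at least 17.3-fold higher. The basement membrane chains Col4a1 and Col4a5 rose by 3.13 ± 0.08 and 1.92 ± 0.09, the first from 902, 1064, 1049, 1079 and 1229 to 9868, 9675, 9858, 9473 and 8282, and Col9a3 by 1.62 ± 0.13, a call lost in the mean over its probe sets (0.34, adjusted p = 0.229). Col5a2 had mean signals of 1276 and 273, with 3 transduced arrays above background, and Col9a1 of 575 and 200, with 2. Col5a3 changed by -1.04 ± 0.22 and was under 2-fold without control sample 2 (-0.98) and without transduced sample 1 (-0.97) or 3 (-0.90). In the mean over its probe sets Col5a3 was not called, at -0.48 (adjusted p = 0.258). Col8a1 was above background on 4 control arrays and 1 transduced array, with mean signals of 323 and 105, and was called lower with overlapping groups.

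Matrix proteases and their inhibitors gave 7 higher and 8 lower of 28, and 4 higher and 8 lower after quantile normalization. Within the inhibitors Timp1 went from 839, 1145, 870, 827 and 939 to 6354, 5649, 6870, 6005 and 5238, a change of 2.69 ± 0.10, while Timp4 changed by -3.28 ± 0.16 and Timp3 by -2.10 ± 0.15. Mmp14, a membrane-bound protease, rose by 1.35 ± 0.13 and Ctsl, the lysosomal cathepsin L, by 1.26 ± 0.06. Mmp11 rose by 1.16 ± 0.20, at 0.96 and under 2-fold after quantile normalization. Adamts5, which cuts proteoglycans, changed by -3.10 ± 0.16 and Adam12, a membrane-bound shedding protease, by -2.74 ± 0.07, from 12932, 14045, 11700, 12969 and 12676 to 2085, 1895, 1842, 1738 and 1982. In postnatal cells Adam12 rose by 1.83 and Adamts5 by 1.13, opposite to the embryonic direction (adjusted p of the differences 6.8e-11 and 4.1e-11).

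Positional genes changed without a common direction. Of 22 measured Hox genes 6 were called higher and 5 lower. Above background on all 5 arrays of at least 1 embryonic group were 21 of these 22. The same held for 12 of 32 forebrain patterning genes and for 12288 of all 18193 genes. The labelled origin of the cells was not tested with these genes. Hoxd9 went from 575, 803, 732, 604 and 627 to 3998, 3634, 3856, 3330 and 4139, a change of 2.48 ± 0.12, Hoxa9 rose by 1.80 ± 0.06, Hoxa2 by 1.74 ± 0.09 and Hoxa4, with 4 control arrays above background, by 2.31 ± 0.24. Other Hox genes were lower. Hoxa7 fell from 6403, 7610, 7561, 6899 and 6894 to 1291, 1540, 1817, 1829 and 1681, a change of -2.11 ± 0.09, and the changes were -2.66 ± 0.17 for Hoxb6, -2.06 ± 0.18 for Hoxb9 and -1.99 ± 0.10 for Hoxc8. In postnatal cells Hoxa7 was called higher, with mean signals of 39.2, below background on every control array, and 729.9 in transformed samples, and the difference between the responses was called (adjusted p = 7.3e-15).

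Of 32 forebrain patterning genes 7 were called higher, 5 of them above background on every transduced array, and 1 lower. Sp8 read 132, 102, 129, 117 and 125 in control and 4513, 4901, 4670, 4837 and 5006 in transduced samples. Emx2, a cortical homeobox gene, had mean signals of 163 and 751, with 2 control arrays above background, and Otx1 rose from below background, at least 2.11-fold. Nr2f2, an orphan nuclear receptor, rose by 1.17 ± 0.10. Meis1 fell by 1.21 ± 0.09, with its other probe sets at -0.49 and 0.21 and the mean over its probe sets under 2-fold (-0.50, adjusted p = 0.00865). The difference from postnatal cells was called for 8 of the 32, all with the embryonic change higher, and Otx1 was called lower in postnatal cells, with 1 of 5 transformed arrays above background.

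Midbrain, hindbrain and spinal cord genes gave 8 higher and 4 lower of 27, and 5 higher and 4 lower after quantile normalization. The dorsal factor Pax3 rose by 3.57 ± 0.40, with 4 control arrays above background, and Msx1, also dorsal, by 1.89 ± 0.17. Irx2 rose by 1.75 ± 0.10, and En2, of the midbrain, had mean signals of 96.1 and 715, with 1 control array above background. The ventral factor Nkx2-2, which is also needed in oligodendrocyte progenitors, read 7277, 9182, 8292, 7539 and 6708 in control samples and 133, 328, 144, 221 and 371 in transduced samples, above background on 3 arrays. Nkx6-1 and Dbx2, which mark ventral and intermediate progenitor domains, were below background on every transduced array, at least 2.14-fold and at least 4.08-fold lower. Zic1, a dorsal factor, was lower as well, with a change of -3.94 ± 0.13, from 18859, 17874, 18204, 18489 and 17731 to 1701, 1172, 1270, 1089 and 816.

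Imprinted genes, expressed from the copy of a single parent, gave 5 higher and 10 lower of 36. Grb10, an adaptor that restrains insulin signalling, went from 26841, 33333, 26511, 27216 and 26108 to 2239, 2115, 2780, 2806 and 1678, a change of -3.60 ± 0.12 (adjusted p = 3.1e-13), and rose by 3.11 in postnatal cells (difference 6.71, adjusted p = 2.5e-18). Nnat changed by -3.56 ± 0.07, Mest by -2.42 ± 0.06 and Nap1l5 by -2.05 ± 0.12. Kcnq1ot1, a long non-coding RNA that silences its neighbours, rose by 3.30 ± 0.14, Airn, another, by 1.34 ± 0.24, and Dlk1 by 2.01 ± 0.19. The array's strand reading for such antisense RNAs was not tested. Phlda2, a growth-restricting gene of the placenta, rose from below background, at least 5.28-fold.

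Of 5 measured Y-linked genes 3 were called lower and 0 higher. Eif2s3y read 3957, 4112, 4592, 4516 and 3601 in control samples and was below background on every transduced array, at 78, 204, 114, 97.2 and 101, at least 20.7-fold lower. Kdm5d, a histone demethylase, had signals of 3518, 2735, 3010, 3285 and 2468 in control and 11.3, 89.1, 52.8, 231 and 68.8 in transduced samples, above background on 1 array, and Uty mean signals of 1050 and 208, with 3 transduced arrays above background. The other bright Kdm5d probe set changed by -1.43. The other 2 Y-linked genes were above background on at most 2 control arrays. In postnatal cells Eif2s3y changed by -0.08, with mean signals of 3568 and 3272, and the differences from the embryonic change were called for all 3 genes. A list of X-linked genes, which names the Tceal and Bex families and Xist, had 21 of its 24 genes measured. Of these 21, 0 were called higher and 3 lower, with changes from -5.8 to 0.983. The sex of the cells was not tested with these lists. A difference in the origin or sex of the embryonic cells and an effect of transduction cannot be told apart here, for Y-linked or other genes.

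The other chromosomes held no comparable share. Among genes with a mean signal over 500 in either group, the median change of an autosome lay between -0.01 and 0.12. Between 9.0% and 16.8% of an autosome's genes were called higher, the most on chromosome 3, and 5.08% to 11.1% lower, the most on chromosome 6. On the X chromosome 8.56% were higher, below the share of every autosome, and 10.4% lower, within the range of the autosomes. Its median change of -0.07 was below that of every autosome. These shares leave out dim genes, so they are to be compared with each other and not with the shares over all genes tested.

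Regulators of chromatin showed small changes. Of 26 polycomb and DNA methylation genes 5 were called higher and 0 lower (13 higher and 6 lower at an unadjusted p under 0.05), and no change passed 1.38. Kdm6b, which removes the polycomb mark, rose by 1.38 ± 0.07, Ezh1 by 1.23 ± 0.24 and Tet1, which oxidises methylated cytosine, by 1.20 ± 0.10, from 3310, 2294, 3458, 3036 and 3268 to 7632, 6777, 6855, 6188 and 7832. Cbx7, with 4 control arrays above background, rose by 1.29 ± 0.31, a call lost in the mean over its probe sets (0.65, adjusted p = 0.109). Tet1 fell in postnatal cells, with a change of -1.91 (difference -3.12, adjusted p = 1.3e-08).

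Stress genes of amino acid shortage and unfolded proteins gave 5 higher and 0 lower of 23 (14 higher and 4 lower at an unadjusted p under 0.05). Trib3 had mean signals of 211 and 3154, with 3 control arrays above background, Chac1, which degrades glutathione, rose by 2.30 ± 0.14, and Cebpb by 2.22 ± 0.18. Ddit3, which encodes the stress factor CHOP, rose by 1.37 ± 0.12, less than in postnatal cells, where it rose by 3.44 (difference 2.08, adjusted p = 3.9e-09). For the list the difference was called for 10 genes, all with the postnatal change higher.

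Other lists moved both ways or in part, where 8.70% of all genes were called higher and 5.73% lower. Axon guidance molecules, which steer growing processes, gave 9 higher and 12 lower of 42, and matrix glycoproteins 5 and 9 of 31. Integrins, the receptors of the matrix, gave 5 higher and 4 lower of 18. Chemokines and their receptors gave 6 and 2 of 20, and lysosome and autophagy genes 5 and 1 of 25. Of 14 heat shock genes 4 were called higher and 0 lower, while 4 were higher and 6 lower at an unadjusted p under 0.05, and their median change was -0.10.

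Of 20 genes of serine, one-carbon and nucleotide metabolism 4 were called higher and 0 lower, beside 8.70% and 5.73% of all genes. Of 26 oxidative phosphorylation genes 1 was called higher, Cox7a1, an isoform of a cytochrome oxidase subunit, by 3.66 ± 0.13, and 0 lower. Another 17 had an adjusted p under 0.05 (limma) but stayed under 2-fold. At an unadjusted p under 0.05, 2 were higher and 16 lower. Of 19 cholesterol synthesis genes 1 was called lower, Mvk, which encodes mevalonate kinase, by -1.41 ± 0.11, and 0 higher. Here 14 others had an adjusted p under 0.05 (limma) but stayed under 2-fold, and 4 were higher and 12 lower at an unadjusted p under 0.05. Of 20 ribosome biogenesis genes and 10 reference housekeeping genes 0 were called, though 13 and 6 had an adjusted p under 0.05 (limma) with under 2-fold changes. At an unadjusted p under 0.05 the first list gave 6 higher and 8 lower and the second 5 higher and 3 lower. Their median changes were -0.02 and 0.08, beside 0.08 over all genes.

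Over all genes the difference between the embryonic and the postnatal response was called for 3475. The embryonic change was the higher one for 1773, a share of 9.75%, and the lower one for 1702, a share of 9.36%. After quantile normalization these counts were 1545 and 1988. Median changes of the hypoxia list were 1.70 in embryonic and -0.07 in postnatal cells, of immediate early genes 2.0 and 0.09, of synaptic adhesion genes -2.05 and -0.40, and of mitosis genes -0.18 and -1.37.

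**Figure D5:**
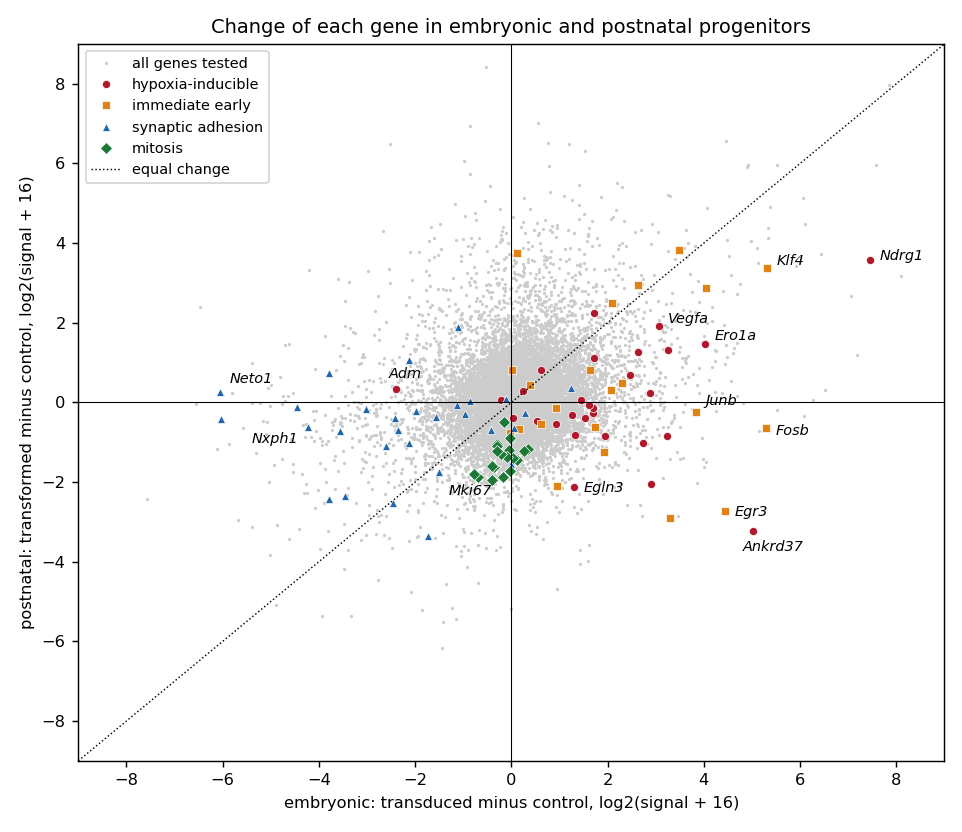
Change of every gene in embryonic cells (transduced minus control, horizontal) against its change in postnatal cells (transformed minus control, vertical), both as log2(signal + 16), with 4 gene lists in colour and the line of equal change dotted. Ankrd37 lies at 5.03 on the embryonic and -3.24 on the postnatal axis, Egr3 at 4.45 and -2.72, and Neto1 at -6.05 and 0.27.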

How the data were processed

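Per the labels, total RNA of 20 samples was measured on Affymetrix mouse arrays, and 10 embryonic samples form the comparison. The deposited values are intensities, 1 linear signal per probe set; for the authors' software and normalization, the sources used here give no name. The trimmed mean of every array lay between 2500.01 and 2500.02 in the deposited table, as a scaling factor per array would give. From these signals log2(signal + 16) was computed. Of 45101 probe sets 34945 name 1 gene, and the brightest by mean log2 over the 20 arrays represented each of 18193 genes. A second probe set can read another part of a transcript. The background level was the 95th percentile of 27 bacterial control probe sets on each array. The 5 transduced and 5 control arrays were compared with limma 3.58.1 in R 4.3.3 (intensity trend, Benjamini-Hochberg adjustment over all genes), and a call needed an adjusted p under 0.05 and a 2-fold change. The difference from the postnatal response was an interaction term over 20 arrays. The fits were tested on simulated data.

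Members and gene lists were chosen with earlier results of these data known. Genes were named by rule: the 15 largest rises and falls among called genes without overlap and above background on all arrays of the brighter group, outside the interferon, antigen presentation, oligodendrocyte progenitor and neuron lists, up to 4 called members of each list per direction, members that define a list, and the given markers. Clone names were passed over. Npas4, Cdh1 and other members that define a list but were not called are given by their values. Where a gene was above background on none of a group's arrays, its fold is a lower bound, taken against the background level of those arrays, and where it was above on 1 to 3, mean signals are printed. Alternatives were the offset, normalization, probe set rule, a filter on dim genes, the samples in the fit, the intensity trend, the fold threshold, the replicate number as a block and leaving out each array.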

Additional observations from a re-analysis of the deposited data

Results flagged for a closer look

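In 24 of 321 groups of 5 arrays tested (named genes by group), the highest or lowest array stood apart from the other 4 by Dixon's criterion, which chance alone passes in about 1 in 20 groups. Control sample 1 read 22515.4 for Etv5 against 20419.6 to 20557.5 and 270.5 for Klf4 against 331.4 to 348.5 in the other arrays of its group. Control sample 2 read 1443.8 for Col5a2 against 1202 to 1264.2, 2622.7 for Glrb against 4889 to 5473.8 and 33332.6 for Grb10 against 26107.5 to 27216 in the other arrays of its group. It also read 2615.1 for Pcdh19 against 1864.2 to 2019.5. Control sample 3 read 43453.8 for Egr1 against 32150.3 to 35053.9, 3422.9 for Timp3 against 2334.2 to 2521.4 and 4455.2 for Vegfa against 3394.8 to 3605.1 in the other arrays of its group. Control sample 5 read 3026.7 for Col4a5 against 2302.6 to 2383.4, 238.1 for Hif3a against 1066.2 to 1298 and 19363.9 for Kcnmb4 against 20760.1 to 21331.3 in the other arrays of its group. Transduced sample 2 read 1224.3 for Dll3 against 723.9 to 812.4 and 457.6 for Pcdh19 against 616.6 to 665 in the other arrays of its group. Transduced sample 4 read 3503.2 for Kcnq1ot1 against 4553.5 to 4962.9, 531.1 for Vgf against 714.7 to 803 and 1860.5 for Wnt7b against 855.5 to 1029 in the other arrays of its group. Transduced sample 5 read 279.2 for Cdh11 against 417.1 to 451.8, 22404.7 for Cdkn1a against 28901.4 to 29353 and 8282.3 for Col4a1 against 9473.5 to 9868.4 in the other arrays of its group. It also read 1033.3 for Hoxc8 against 1323.2 to 1457.2, 22708.9 for Ndrg1 against 30642.7 to 33437.8 and 97912.1 for Pcdh17 against 107769.6 to 111814.1. It also read 32984.1 for Rtp4 against 27354.7 to 28829.1.

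A set of 25 named genes was called in opposite directions in embryonic and postnatal cells, and the test of the difference itself (limma interaction over 20 arrays) was called for each. The values below are the postnatal minus the embryonic change of log2(signal + 16). Of these genes 12 were higher in transduced embryonic cells and lower in transformed postnatal cells. For them the difference was -8.262 for Ankrd37, -3.682 for Dusp5, -3.431 for Egln3 and -7.168 for Egr3. Next came -3.44 for Kcnf1, -4.71 for Kcnq1ot1, -2.64 for Nrarp and -6.31 for Otx1. The value was -4.963 for Pcdh17, -3.076 for Pfkl, -5.627 for Phlda2 and -3.117 for Tet1. The other 13 were lower in embryonic and higher in postnatal cells. Here the difference was 4.574 for Adam12, 4.228 for Adamts5, 8.876 for Anxa6 and 3.379 for Ccnd1. Next came 3.226 for Cdh22, 3.249 for Col5a3, 3.302 for Gabra2 and 5.439 for Gabra3. The value was 6.105 for Gap43, 6.709 for Grb10, 5.886 for Hoxa7 and 3.574 for Hoxc8. There followed 4.209 for Kcnmb4. Dusp5, Hoxa7, Hoxc8, Kcnf1, Otx1 and Phlda2 were below background on every array of at least 1 of the 4 groups, and Ankrd37, Anxa6 and Gabra3 on some arrays of 1 group, so the sizes of their differences rest on signals under background and are no bounds.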

How the results depend on the processing

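Over the alternatives that kept the fold threshold and 1 value per gene, the number of genes called lay between 2317 and 2635, beside 2625. Without the fold threshold 7898 genes were called, 4288 higher and 3610 lower, and with every probe set tested on its own 6070 probe sets, 3895 higher and 2175 lower; both follow from the construction of those counts. Leaving out each array gave 2523 to 2635 genes, 1505 to 1643 higher and 992 to 1072 lower, and 21 to 22 hypoxia genes higher, 14 to 15 immediate early genes higher, 7 to 10 proneural genes lower, 21 to 22 synaptic adhesion genes lower and 11 to 12 glutamate receptors lower. Quantile normalization moved the split to 1342 higher and 1246 lower. The replicate numbers did not pair the samples: deviations of same-numbered samples correlated with r of -0.053 to 0.0323, 1 of 5 numbers matched best with its own, and with the replicate number as a block 2589 genes were called, 1563 higher and 1026 lower. Of 193 named genes 176 were called, 162 of them under every alternative run, and no called gene among them reversed its direction. Of the uncalled ones, Lox turned from -0.25 to 0.47 in the mean of all probe sets, and Myc and Npas4 changed sign without 1 array, at 0.02 and -0.02. In the difference from the postnatal response 3475 genes were called, 3683 without postnatal control samples 4 and 5 (1979 with the embryonic change higher and 1704 lower) and 3533 after quantile normalization (1545 and 1988, beside 1773 and 1702). Among 92 named genes with a further bright probe set, 90 had all such sets of the same sign, Meis1 and Wnt7a being the exceptions, and for 15 the representing set changed more than 2 times as far as another. Signals near background limit the size of a change, and 1687 genes lay below background on all 10 arrays.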
